A study of Mus musculus with 11 samples.

Results

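The interferon-stimulated genes described here are those outside the guanylate-binding proteins and the interferon regulatory factors, chosen as a list of 42 gene symbols. Of these, 39 had a row among the 25677 genes of the count table, and Mx1, Mx2 and Oas1b were not analysed here. Kidneys came from 3 groups. Ctr were 3 C57BL/6J mice (genotype C57B6 in the labels), Lpr were 4 MRL/lpr mice without treatment, and DNase were 4 mice of the same strain injected intraperitoneally every day with DNase I from week 17. All mice were 21 weeks old, and the study's methods describe them as female. MRL/lpr mice carry a mutation of the death receptor Fas and develop a spontaneous lupus-like nephritis, while DNase I digests DNA outside cells. The controls carried neither the MRL background nor the lpr mutation, so strain and disease cannot be told apart in any difference from Ctr, and no MRL mice without lpr and no C57BL/6J mice given DNase I were among the groups.

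Type I interferons signal through the receptor chains IFNAR1 and IFNAR2 and the kinases JAK1 and TYK2, and a complex that contains STAT2 and IRF9 then binds a sequence called the interferon-stimulated response element. Interferon gamma acts through its own receptor, and many genes respond to both kinds of interferon. The products bind foreign RNA, degrade it, block virus entry or release, or adjust the signal itself, and a raised level of these transcripts is a known feature of lupus in blood and kidney.

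The response element is shown first, since it is the sequence through which type I interferon is known to act. Promoter windows of 300 bases, from 250 bases before to 50 bases after each annotated start, were taken from RefSeq (GRCm38.p6, the assembly also called mm10) and were found for 31 of the 39 genes. The core of the element, taken as GAAA, any 2 bases and GAAA again, was searched on both strands, and overlapping matches were counted. It occurred in 14 of the 31 genes (45.2%), against 3.99% of all 27025 genes with a window. The 14 were Bst2, Ddx60, Eif2ak2, Ifih1, Ifit1, Ifit3, Ifit3b, Ifitm3, Isg15, Oas1a, Oas1g, Oas3, Rsad2 and Slfn5. The core TTCNNNGAA of the gamma-activated sequence, through which interferon gamma is known to act, occurred in 7 of the 31 genes (22.6%), against 9.55% of all genes. Dhx58, Epsti1, Herc6, Rtp4, Xaf1 and Zbp1, whose values per kidney are given below, were not among the 14. A gene can be absent from the 14 because its window held no match or because no window was found. Dhx58 and Zbp1 had no window and were not searched. Stretches around the matches follow for some of the 14 genes with a match. Each is read 5′ to 3′ on the strand of the gene, with the matches in capitals and positions counted from 0 at the annotated start. A match on the opposite strand reads as TTTC, any 2 bases and TTTC.
Isg15, chr4:156200855-156200916, minus strand, positions -98 to -37: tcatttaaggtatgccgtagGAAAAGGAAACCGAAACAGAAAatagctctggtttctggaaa
Ifit1, chr19:34640765-34640833, plus strand, positions -124 to -56: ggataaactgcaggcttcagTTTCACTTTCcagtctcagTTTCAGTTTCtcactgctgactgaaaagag
Ifit3, chr19:34583353-34583436, plus strand, positions -176 to -93: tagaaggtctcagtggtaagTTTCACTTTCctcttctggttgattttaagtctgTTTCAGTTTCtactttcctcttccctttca
Ifit3b, chr19:34607749-34607832, plus strand, positions -208 to -125: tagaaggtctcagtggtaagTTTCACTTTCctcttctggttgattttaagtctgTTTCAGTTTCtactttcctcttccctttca
Oas1a, chr5:120907510-120907565, minus strand, positions -40 to 15: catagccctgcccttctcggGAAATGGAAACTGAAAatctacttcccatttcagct
Oas1g, chr5:120887596-120887651, minus strand, positions -38 to 17: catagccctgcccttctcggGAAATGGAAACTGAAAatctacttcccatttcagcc
Bst2, chr8:71537567-71537622, minus strand, positions -150 to -95: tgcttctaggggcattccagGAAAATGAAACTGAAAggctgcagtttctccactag
Rsad2, chr12:26456543-26456592, minus strand, positions -140 to -91: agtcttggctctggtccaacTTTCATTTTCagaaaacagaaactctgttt
Isg15 held 3 overlapping matches in 1 run, and Oas1a, Oas1g and Bst2 each held 2. Rsad2, whose level did not rise in any comparison below, held 1.

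The shown stretches of Ifit3 and Ifit3b were the same letter for letter. Their longest reading frames were identical at 99.1% of positions, and those of Oas1a and Oas1g at 96.7%. Reads can therefore be split between the members of each pair by the authors' counting, and the values of these 4 genes are uncertain as values of single genes. Parts of Ifit1, Ifitm3 and Phf11d also have close copies, in Ifit1bl1 (86.0% identity) for Ifit1, Ifitm1 (89.6%) for Ifitm3, and Phf11a (94.1%), Phf11b (89.4%) and Phf11c (87.3%) for Phf11d. Many of the genes lie in clusters. Ifit1, Ifit2, Ifit3 and Ifit3b lie on chromosome 19, between Ifit2 at chr19:34550550-34576534 and Ifit1 at chr19:34640889-34650009. The 6 measured OAS genes lie on chromosome 5, with Oas1a at chr5:120896256-120907544. Parp9 at chr16:35938470-35972621 and Dtx3l at chr16:35926515-35939027 overlap at their ends, where reads counted without strand could not be told apart.

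Depth lay between 33469858 and 38460873 counts on genes per kidney, and all 39 genes passed the filter on low counts in each comparison. Values are in CPM, counts scaled to a common library size, and fold changes and p-values come from edgeR's quasi-likelihood test with Benjamini-Hochberg adjustment over all genes tested. A gene passed when its adjusted p was under 0.05. The labels name no litter or batch and give 1 library per mouse. Lpr replicate 3 stood apart. Relative to the mean of all kidneys its counts fell with gene length, with a slope of -0.407 on the log2 scale per doubling of length, against -0.0492 to 0.0901 in the other kidneys. Its proximal tubule markers summed to 5565 CPM, against 8197 to 13076 CPM in the other kidneys, and its podocyte markers to 363 CPM, against 624 CPM or more. Counts of genes that rest on this kidney are therefore also given without it. Fas, the gene mutated in lpr mice, did not pass, with log2 fold changes against Ctr of -0.01 (SE 0.23) in Lpr and -0.17 (SE 0.15) in DNase, so its summed count did not serve as a check of the strain labels. The proximal tubule, podocyte, distal nephron and endothelial markers that define kidney were present in every library, and none of these lists had a gene that passed between Lpr and Ctr.

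Most interferon-stimulated genes were higher in Lpr than in Ctr kidneys. Of the 39 genes, 26 rose and 0 fell, while 7.27% of the 16074 genes tested rose and 2.92% fell. The median log2 fold change was 1.64, beside 0.03 over all genes tested. The values ranged from -0.74 for Samd9l to 3.08 for Zbp1. All 4 Lpr kidneys lay above all 3 Ctr kidneys for 27 genes, against 14.2% of all genes tested. Under the study's rule, which also asks for an absolute log2 fold change above 2, 12 genes were called higher, against 4.65% of all genes. The rule was applied here to the edgeR fit, whereas the study names DESeq2, so these are not the study's calls. The count of 26 depended on single kidneys. It was 9 without Ctr replicate 1 (3.91% of all genes), 9 without Ctr replicate 2 (3.97%) and 10 without Ctr replicate 3 (3.98%). Leaving out Lpr replicate 1 gave 15 (5.94%), and leaving out Lpr replicate 2 also gave 15 (5.48%). Bst2, Dhx58, Epsti1, Herc6, Isg15, Oas1a, Xaf1 and Zbp1, 8 genes, passed whichever single kidney was left out. Without Lpr replicate 3 the count was 35 higher, against 11.0% of all genes, and 1 lower, against 1076 of 15855 genes.

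**Figure D1:**
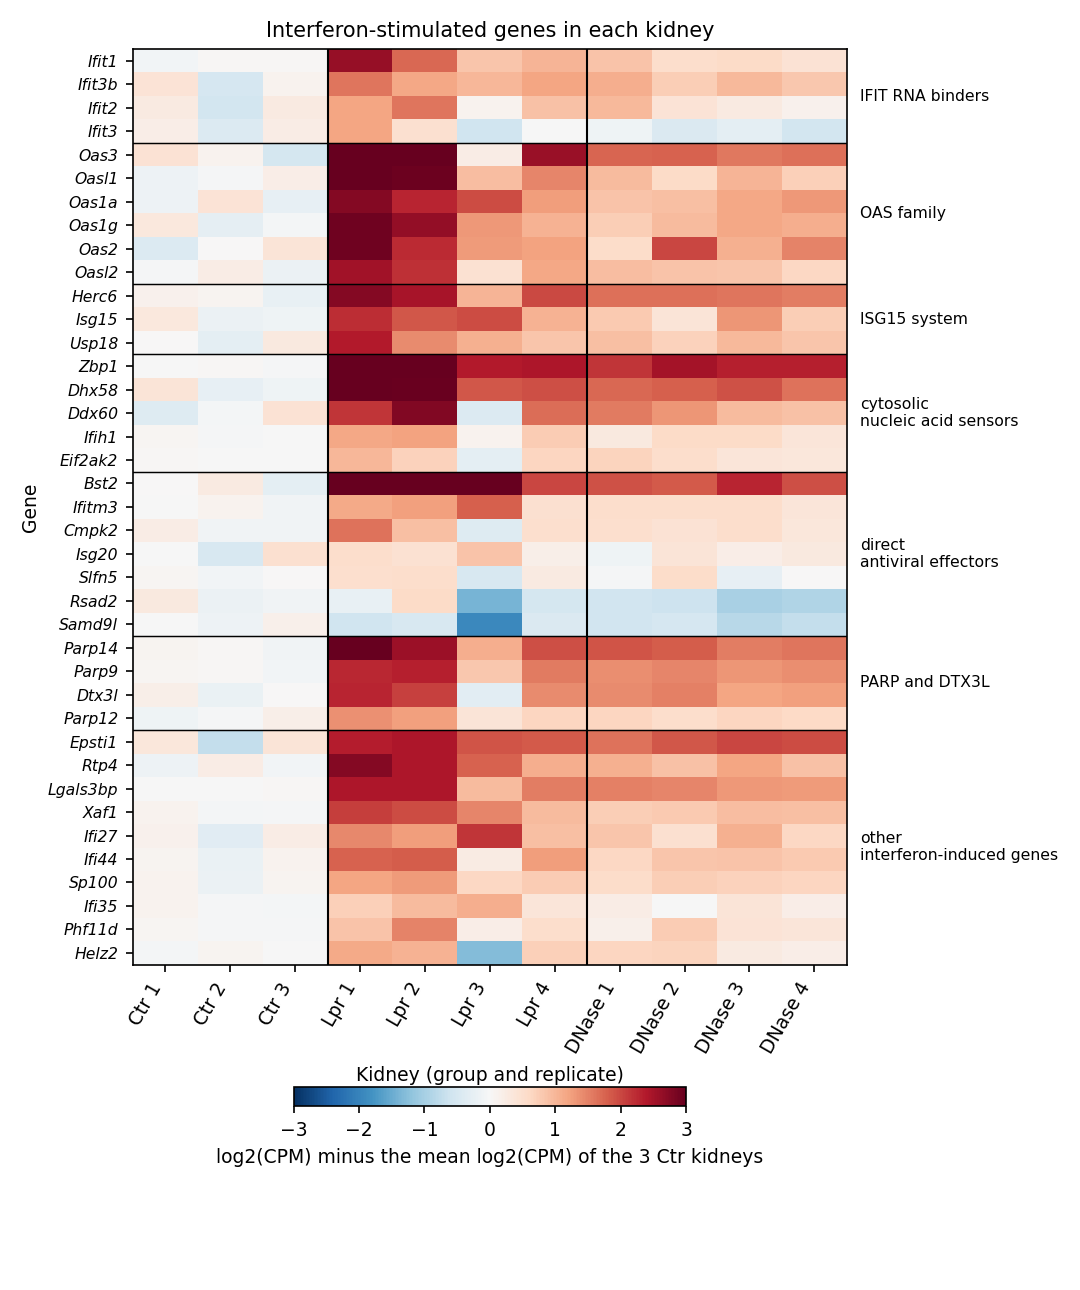
Level of each of the 39 genes (vertical axis, grouped by role) in each of the 11 kidneys (horizontal axis), as log2 CPM minus the mean log2 CPM of the 3 Ctr kidneys; the colour scale stops at 3 in both directions. Lpr replicates 1 and 2 hold the deepest red, Lpr replicate 3 is uneven from gene to gene, the 4 DNase kidneys resemble each other in most genes, and Rsad2 and Samd9l are the 2 genes that are blue in all 4 DNase kidneys and passed as lower than Ctr.

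The cytosolic sensors of nucleic acids held the highest fold change, but only 2 of the 5 passed. Zbp1, a sensor of nucleic acid in the Z conformation, had 2.97, 3.09 and 2.94 CPM in the Ctr kidneys. In the Lpr kidneys it had 31.0, 37.7, 15.6 and 16.1 CPM. Every Lpr kidney lay above every Ctr kidney, and replicates 1 and 2 had about the same high level while replicates 3 and 4 had about the same lower one. The log2 fold change was 3.08 (SE 0.37, adjusted p = 0.00151 from edgeR). Dhx58, which encodes the helicase LGP2, had 3.26, 2.10 and 2.31 CPM in Ctr and 23.5, 19.6, 9.10 and 9.63 CPM in Lpr. The groups did not overlap, and again replicates 1 and 2 were the higher Lpr kidneys, at a log2 fold change of 2.60 (SE 0.41, adjusted p = 0.00487 from edgeR). The other 3 sensors did not pass. Ifih1, the double-stranded RNA sensor MDA5, had a log2 fold change of 0.88 (SE 0.26, adjusted p = 0.0778 from edgeR) and Ddx60, a helicase, had 1.90 (SE 0.65, adjusted p = 0.118 from edgeR). Eif2ak2, the kinase PKR, had 0.59 (SE 0.28, adjusted p = 0.267 from edgeR). Without Lpr replicate 3 these 3 genes passed, with log2 fold changes of 1.06, 2.24 and 0.79.

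In the OAS family, several of whose members make short adenylate chains that switch on RNase L, all 6 measured genes rose. Oas1a had 3.32, 4.88 and 3.12 CPM in Ctr. It had 25.1, 17.9, 14.3 and 8.84 CPM in Lpr, so that the lowest Lpr kidney still exceeded the highest Ctr kidney. Its log2 fold change was 2.14 (SE 0.37, adjusted p = 0.00734 from edgeR). Oas1g, its near-identical neighbour, was counted at a lower level, with 0.971, 0.638 and 0.749 CPM in Ctr and 5.88, 4.82, 1.92 and 1.59 CPM in Lpr. Its log2 fold change was 2.18 (SE 0.54, adjusted p = 0.0352 from edgeR). Oas3 had the largest log2 fold change of the family at 2.89 (SE 0.76, adjusted p = 0.0463 from edgeR), although Lpr replicate 3, at 0.561 CPM, lay below Ctr replicate 1 at 0.647 CPM. Oas2, Oasl1 and Oasl2 had log2 fold changes of 2.06, 2.45 and 1.80.

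All 3 genes of the ISG15 system rose. Isg15, a ubiquitin-like protein that is attached to other proteins, had 7.55, 5.36 and 5.51 CPM in Ctr and 28.01, 22.2, 23.4 and 12.4 CPM in Lpr. Here Lpr replicate 3 was not low, and replicate 4 was the lowest Lpr kidney but above all Ctr kidneys. The log2 fold change was 1.82 (SE 0.30, adjusted p = 0.00591 from edgeR). Herc6, which attaches ISG15 to its targets in mice, had 7.93, 7.71 and 6.23 CPM in Ctr and 49.2, 40.1, 14.7 and 28.8 CPM in Lpr. The groups did not overlap, at a log2 fold change of 2.20 (SE 0.39, adjusted p = 0.00789 from edgeR). Usp18, which removes ISG15 and restrains the interferon receptor, had a log2 fold change of 1.54 (SE 0.39, adjusted p = 0.0402 from edgeR).

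The direct antiviral effectors differed most among themselves. Only Bst2 and Ifitm3 of the 7 passed, and the median of the 7 was 0.48. Bst2, the tetherin that holds budding virus at the cell surface, had 22.1, 26.6 and 17.95 CPM in Ctr and 188, 175, 176 and 88.0 CPM in Lpr. Replicates 1 to 3 lay close together, and replicate 4 was at about the middle between them and Ctr. Its log2 fold change of 2.83 (SE 0.31, adjusted p = 0.000929 from edgeR) had the smallest p of the 39 genes. Ifitm3, which blocks virus fusion, had 50.1 ± 3.73 CPM (SD, n = 3) in Ctr and 118 ± 42.1 CPM (SD, n = 4) in Lpr, at a log2 fold change of 1.25 (SE 0.29, adjusted p = 0.0260 from edgeR). Per length, Ifitm3 was the most abundant of the 39 genes in Ctr, at 74.5 ± 3.66 FPKM (SD, n = 3), and Oas3 the least, at 0.0971 ± 0.0310 FPKM (SD, n = 3).

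Rsad2 and Samd9l were the 2 genes with a fold change below 0. Rsad2, the enzyme viperin, had 36.2, 26.1 and 27.3 CPM in Ctr and 25.4, 44.1, 11.3 and 20.6 CPM in Lpr. The groups overlapped, and Lpr replicate 2 was the highest of all kidneys, at a log2 fold change of -0.22 (SE 0.40, adjusted p = 0.798 from edgeR). Samd9l, an inhibitor of poxvirus growth and of cell division, had 198, 179.5 and 220.0 CPM in Ctr and 131, 143, 51.9 and 147 CPM in Lpr. All Lpr kidneys lay below all Ctr kidneys, but the gene did not pass, with a log2 fold change of -0.74 (SE 0.32, adjusted p = 0.230 from edgeR). Without Lpr replicate 3 it passed at -0.50 (SE 0.10, adjusted p = 0.0149 from edgeR). Cmpk2, a nucleotide kinase gene beside Rsad2, had a log2 fold change of 0.83, Isg20, an RNA exonuclease, 0.48, and Slfn5, of the schlafen family, 0.26, and none of the 3 passed.

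Among the IFIT genes, whose products bind viral RNA ends and stop its translation, Ifit1 and Ifit3b rose and Ifit2 and Ifit3 did not pass. Ifit1 had 7.22 ± 0.319 CPM (SD, n = 3) in Ctr and 23.7 ± 14.2 CPM (SD, n = 4) in Lpr, with a log2 fold change of 1.73 (SE 0.42, adjusted p = 0.0340 from edgeR). Ifit3 had 29.98, 19.5 and 30.4 CPM in Ctr and 59.5, 36.2, 17.2 and 25.9 CPM in Lpr. Replicates 1 and 2 lay above all Ctr kidneys and replicates 3 and 4 did not, at a log2 fold change of 0.39 (SE 0.39, adjusted p = 0.630 from edgeR). Ifit3b had 10.8, 5.80 and 8.72 CPM in Ctr and 24.7, 18.3, 16.3 and 18.6 CPM in Lpr, without overlap, at a log2 fold change of 1.22 (SE 0.26, adjusted p = 0.0179 from edgeR). The copies that share a promoter stretch and nearly all of their reading frame thus had different counted values, and the part of read splitting in this was not tested. Ifit2 had a log2 fold change of 1.01 (SE 0.36, adjusted p = 0.138 from edgeR).

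Of the poly-ADP-ribose polymerase genes and their partner Dtx3l, a ubiquitin ligase that forms a complex with PARP9, Parp9, Parp12 and Parp14 rose. Their log2 fold changes were 1.87, 0.96 and 2.40. Dtx3l had 15.3, 11.8 and 13.7 CPM in Ctr and 66.3, 55.7, 10.9 and 35.9 CPM in Lpr. Only Lpr replicate 3 was not above Ctr, and the log2 fold change was 1.64 (SE 0.52, adjusted p = 0.0915 from edgeR). It was 1.96 (SE 0.23, adjusted p = 0.00133 from edgeR) without this kidney, where Dtx3l passed.

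Of the other 10 interferon-induced genes, 8 rose. Rtp4, a chaperone of membrane receptors, had 7.36, 9.47 and 7.70 CPM in Ctr and 54.8, 43.6, 27.8 and 17.3 CPM in Lpr, and the groups did not overlap. Its log2 fold change was 2.14 (SE 0.38, adjusted p = 0.00866 from edgeR). Epsti1, a gene of macrophage activation, had 4.34, 2.07 and 4.47 CPM in Ctr and 17.6, 18.5, 12.8 and 12.3 CPM in Lpr, at a log2 fold change of 2.08 (SE 0.32, adjusted p = 0.00458 from edgeR). All Lpr kidneys were well above the highest control. Xaf1, which promotes apoptosis by binding the inhibitor XIAP, had 5.45, 4.88 and 4.97 CPM in Ctr and 21.5, 19.9, 14.0 and 9.86 CPM in Lpr. It did not overlap either, at a log2 fold change of 1.69 (SE 0.29, adjusted p = 0.00741 from edgeR). Lgals3bp, a secreted galectin-binding glycoprotein, had 80.0, 80.7 and 82.7 CPM in Ctr and 436, 438, 156 and 236 CPM in Lpr. The controls were almost equal, the 2 highest Lpr kidneys were again replicates 1 and 2, and the log2 fold change was 1.98 (SE 0.37, adjusted p = 0.0101 from edgeR). Ifi27, Ifi35, Ifi44 and Sp100, a nuclear body protein, rose by log2 fold changes of 1.505, 0.81, 1.40 and 1.00. Helz2, a helicase (0.67), and Phf11d (0.87) did not pass.

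**Figure D2:**
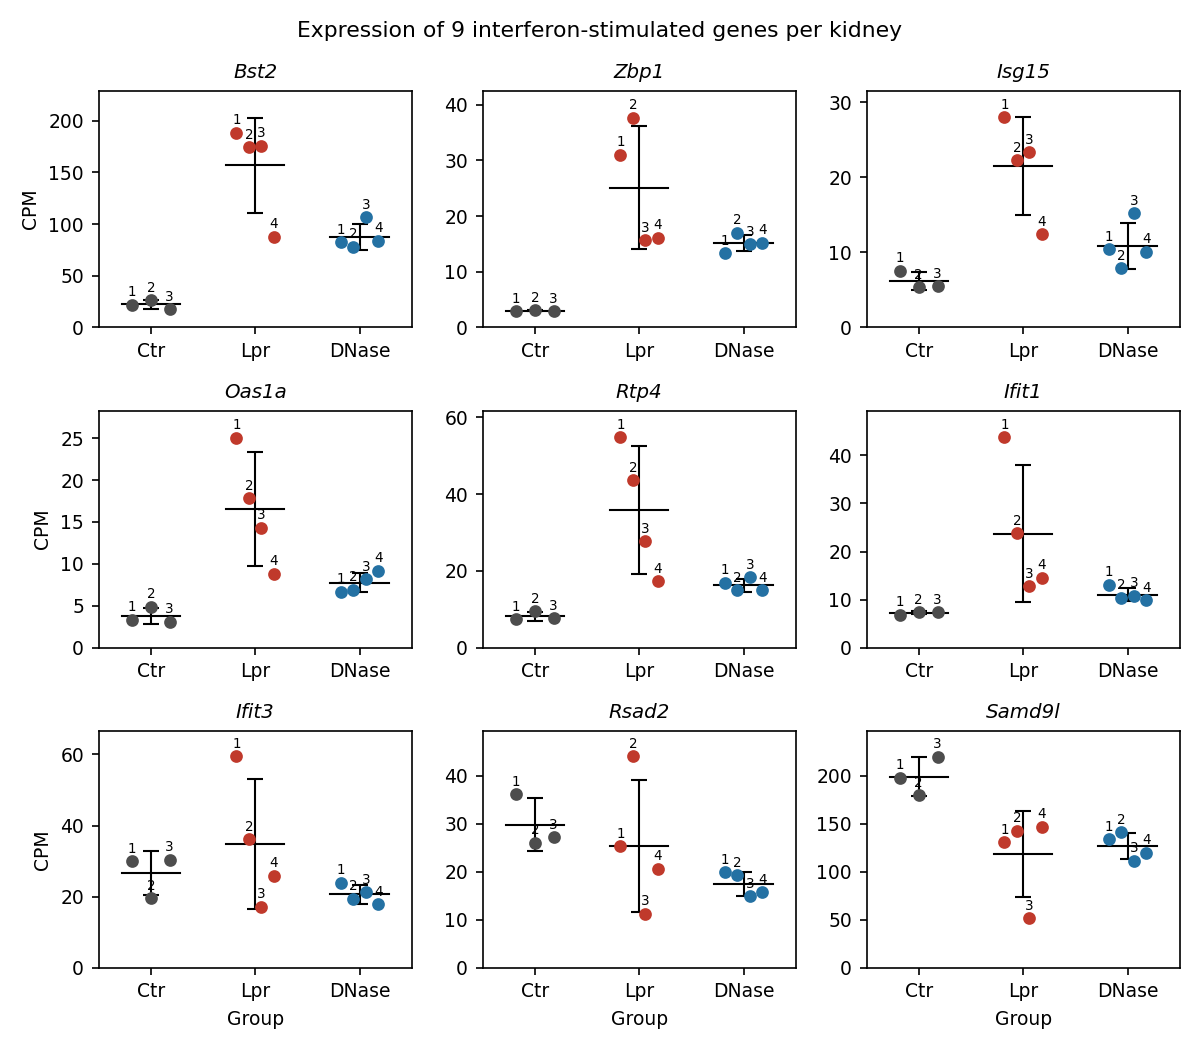
CPM (vertical axes, from 0) of 9 genes in each kidney of the 3 groups; points are single kidneys with their replicate number, lines are means and bars are the SD. Bst2, Zbp1, Isg15, Oas1a, Rtp4 and Ifit1 are above all Ctr kidneys in every Lpr and every DNase kidney, with Lpr replicates 1 and 2 above all DNase kidneys, whereas Ifit3 and Rsad2 overlap between Lpr and Ctr and Samd9l is highest in Ctr.

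The Lpr kidneys differed among themselves more than the other groups did. Averaged over the 39 genes, the log2 level above the Ctr mean was 1.91 in Lpr replicate 1, 1.75 in replicate 2, 0.70 in replicate 3 and 1.04 in replicate 4. In the DNase kidneys it was 0.84, 0.87, 0.85 and 0.77. Lpr replicate 1 was the highest of the 8 MRL/lpr kidneys for 22 genes and Lpr replicate 2 for 11. The median SD of log2 CPM over the 39 genes was 0.188 among the Ctr kidneys, 0.696 among the Lpr kidneys and 0.164 among the DNase kidneys, beside 0.162, 0.422 and 0.170 over all genes tested. Without Lpr replicate 3, the SD in Lpr was 0.512 for the 39 genes and 0.207 for all genes. The SD was larger in Lpr than in DNase for all 39 genes, as it was for 85.2% of all genes. Without Lpr replicate 3 it was larger for 35 of the 39, beside 60.2% of all genes.

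Lpr replicate 3 followed gene length. Among the 13 shortest of the 39 genes, of 648 to 2322 bases, its median log2 difference from the other 3 Lpr kidneys was -0.31, and it was the lowest Lpr kidney for 4 genes. For the 13 genes of middle length the difference was -0.95, and it was the lowest for 10. For the 13 longest, of 4361 to 10294 bases, the difference was -1.38, and it was the lowest for 12. Ifitm3 (648 bases) was 0.83 above the other Lpr kidneys on the log2 scale, and Oas3 (4917 bases) was below them, at -2.87. Spearman's rho between length and this difference was -0.587 over the 39 genes and -0.598 over 15674 genes, all read from the same kidneys, so both values are descriptions. With an offset for gene length in every library, added after the data were seen, 26 of the 39 genes were again higher in Lpr than in Ctr, against 8.72% of all genes. Of these, 24 were shared with the fit without the offset, while Ifi35 and Usp18 no longer passed and Dtx3l and Ifih1 did.

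**Figure D3:**
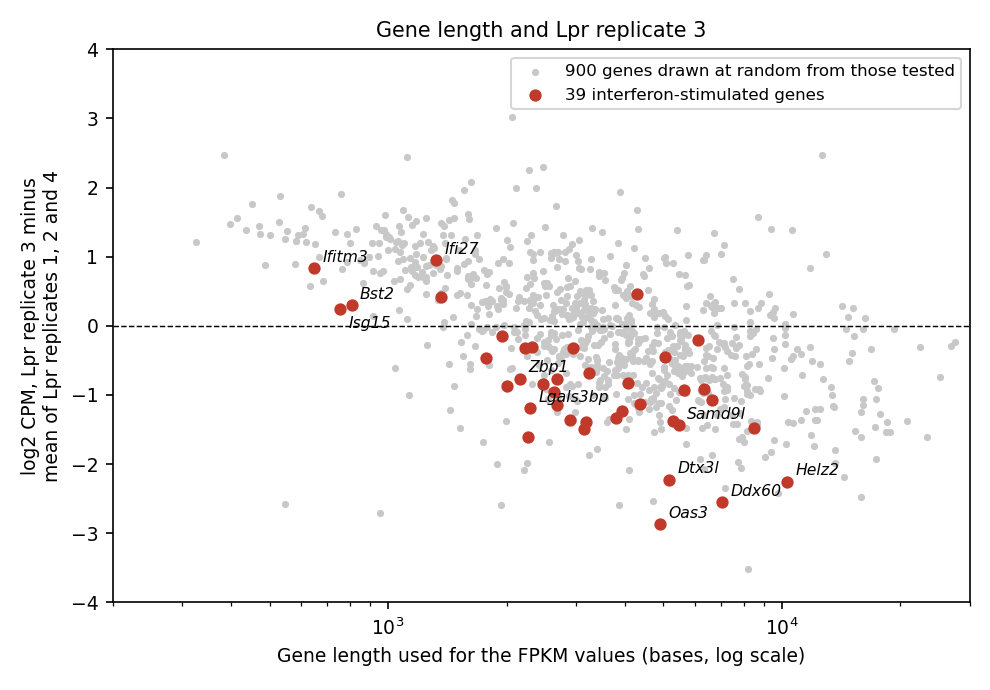
Difference in log2 CPM between Lpr replicate 3 and the mean of the other 3 Lpr kidneys (vertical axis) against gene length in bases (horizontal axis, log scale) for the 39 genes (red) and for tested genes drawn at random (grey). The random draw also holds Herc6 and Zbp1 of the 39. Both sets slope downwards, and the 5 shortest red points lie above 0 while all but 1 of the longer red points lie below.

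The comparison of DNase with Lpr asks what the treatment changed within the MRL/lpr strain. None of the 39 genes passed in either direction with edgeR, and neither did any other gene, so that 0% of the 15832 genes tested were called higher and 0% lower. With DESeq2, 12 genes passed as higher and 7 as lower, of which 0 were among the 39. The smallest adjusted p among the 39 genes was 0.820 from edgeR and 0.0853 from DESeq2. At an unadjusted p under 0.05 from edgeR, 16 of the 39 genes were lower in DNase and 0 were higher. Over all genes 3.43% were lower, and 343 of 15832 were higher. With DESeq2, 18 were lower at this level, against 3.52% of all genes. In sign, 38 of the 39 were lower, as were 8377 of the 15832 genes tested. The median log2 fold change was -0.62, beside -0.02 over all genes tested, and Samd9l had 0.10. The 39 genes were read from the same kidneys, so their signs are not separate observations. All DNase kidneys lay below all Lpr kidneys for 1 gene, Xaf1, against 1.68% of all genes. The count at an unadjusted p under 0.05 was 10 without Lpr replicate 1 (4.38% of all genes), 11 without Lpr replicate 2 (2.83%) and 34 without Lpr replicate 3 (5.98%). Without Lpr replicate 3 all 39 genes were lower in DNase, with a median of -0.79, and the smallest adjusted p was 0.250 from edgeR. With the offset for gene length 19 genes were lower at an unadjusted p under 0.05, against 4.37% of all genes.

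Lpr replicates 1 and 2 were the kidneys that stood apart from the treated ones. Both lay above all 4 DNase kidneys for 37 of the 39 genes, all but Samd9l and Slfn5, as they did for 12.5% of all genes. This pair also had the highest mean levels of the same 39 genes, so a high count was built into its choice. The share over all genes had no such choice behind it, and the count is a description. Lpr replicate 4 lay within the range of the DNase kidneys for 20 genes, above it for 19 and below it for 0. Lpr replicate 3 lay below all DNase kidneys for 19 genes, above them for 11 and within their range for 9.

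The 8 genes with the smallest p, each at an unadjusted p under 0.05 and an adjusted p of 0.820 from edgeR, follow. Oas1a, the adenylate synthetase, had 6.67, 6.94, 8.20 and 9.17 CPM in the DNase kidneys, beside 8.84 to 25.1 CPM in Lpr. Only DNase replicate 4 reached above the lowest Lpr kidney. The log2 fold change was -1.10 (95% interval -1.74 to -0.45). Rtp4 had 16.9, 14.9, 18.4 and 14.9 CPM in DNase, around the level of Lpr replicate 4 and below the others, at -1.14 (95% interval -1.84 to -0.45). Bst2 had 82.2, 78.1, 106 and 83.9 CPM in DNase, again at the level of Lpr replicate 4, at -0.84 (95% interval -1.37 to -0.32). Isg15 had 10.4, 7.88, 15.2 and 10.1 CPM in DNase, where replicate 3 exceeded the lowest Lpr kidney. Its log2 fold change was -0.99 (95% interval -1.60 to -0.37). Xaf1 had 8.45, 8.78, 9.68 and 9.48 CPM in DNase against a lowest value of 9.86 CPM in Lpr, at -0.85 (95% interval -1.38 to -0.32).

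Oasl1, an OAS-like gene, had the lowest log2 fold change of the 39, at -1.62 (95% interval -2.66 to -0.58). It had 4.94, 3.79, 5.19 and 4.20 CPM in DNase and 24.3, 19.5, 4.85 and 7.05 CPM in Lpr, so that replicates 1, 2 and 4 lay above all treated kidneys and replicate 3 within their range. Ifi35 had 16.2, 13.8, 18.2 and 16.1 CPM in DNase and 22.8, 26.8, 29.5 and 17.9 CPM in Lpr, at -0.60 (95% interval -1.01 to -0.19). The treated kidneys were near the 13.4 to 14.9 CPM of the controls. Ifitm3 had 72.1, 72.2, 72.0 and 64.0 CPM in DNase and 111, 118, 173 and 70.1 CPM in Lpr, at -0.76 (95% interval -1.30 to -0.22). Lpr replicate 4 was again inside the treated range. The other 31 genes had log2 fold changes between -1.26 for Oas3 and 0.10 for Samd9l. By role, the OAS family had the lowest median, at -1.15 over 6 genes, and the direct antiviral effectors the median nearest to 0, at -0.38 over 7 genes.

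**Figure D4:**
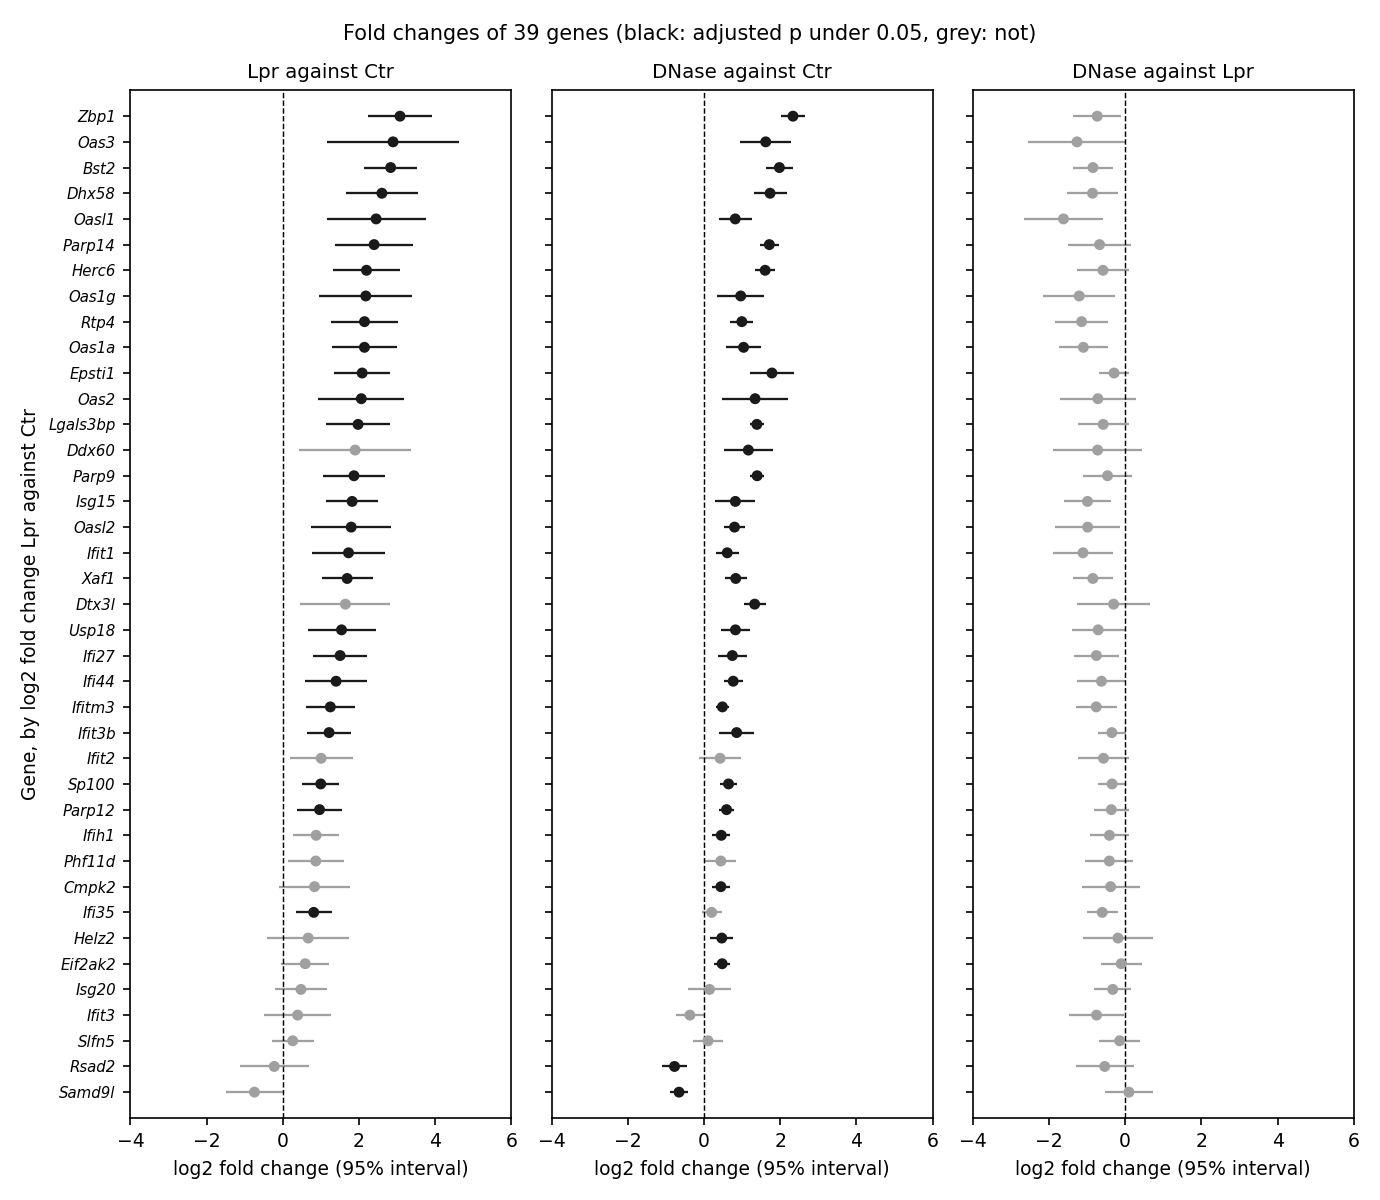
Log2 fold change (horizontal axes) of the 39 genes with its 95% interval from edgeR in the 3 comparisons; genes are in the order of Lpr against Ctr, and black marks an adjusted p under 0.05. In Lpr against Ctr 26 genes are black, in DNase against Ctr 33, with narrower intervals, and in DNase against Lpr none, although 38 points lie left of 0.

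The treated kidneys remained above the controls for most of the genes. In DNase against Ctr, which shares the Ctr kidneys with the first comparison, 31 of the 39 genes were higher, against 13.1% of the 16100 genes tested, and 2 were lower, against 8.61%. The median log2 fold change was 0.82, and no DNase kidney overlapped the controls for 32 of the genes that were higher in sign, against 18.2% of all genes. Under the study's rule 1 gene, Zbp1, was called, against 4.56% of all genes. With all 3 groups in 1 fit, which gives DNase the wider spread of Lpr, 11 genes passed as higher, against 7.81% of all genes, and 0 as lower, against 3.64%.

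Zbp1 had 13.4, 17.01, 15.0 and 15.2 CPM in DNase, at a log2 fold change against Ctr of 2.34 (SE 0.14, adjusted p = 6.7e-06 from edgeR), beside 3.08 in Lpr. Bst2 (1.98 beside 2.83), Epsti1 (1.78 beside 2.08) and Dhx58 (1.74 beside 2.60) followed. For Herc6 the log2 fold change was 1.61 beside 2.20, and for Lgals3bp 1.39 beside 1.98. Oas1a had 1.04 beside 2.14, Rtp4 0.99 beside 2.14, Xaf1 0.83 beside 1.69 and Isg15 0.82 beside 1.82. All 10 passed in both comparisons, and each had the smaller value in DNase. They were picked by their small p in Lpr against Ctr, which favours high values in Lpr, and both comparisons share the Ctr kidneys. The smaller values are therefore a description and no test of the treatment.

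For 9 genes the side of the threshold differed between the comparisons with Ctr, which is not a test of a difference between Lpr and DNase. Ifih1 (0.46), Ddx60 (1.16), Eif2ak2 (0.48), Cmpk2 (0.44), Dtx3l (1.33) and Helz2 (0.47) rose in DNase and had not passed in Lpr, where their log2 fold changes of 0.88, 1.90, 0.59, 0.83, 1.64 and 0.67 were larger but so was the spread. All 6 also passed in Lpr when replicate 3 was left out. Ifi35 had risen in Lpr and did not pass in DNase, at 0.20 (SE 0.12, adjusted p = 0.261 from edgeR). Rsad2 and Samd9l fell in DNase. Rsad2 had 19.97, 19.3, 15.0 and 15.7 CPM in DNase, all below the 26.1 CPM of the lowest control, at -0.77 (SE 0.15, adjusted p = 0.00492 from edgeR). Samd9l had 134, 141, 112 and 120 CPM in DNase, also without overlap, at -0.65 (SE 0.11, adjusted p = 0.00193 from edgeR). Ifit2, Ifit3, Isg20, Slfn5 and Phf11d, 5 genes, passed in neither comparison.

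The genes that carry the interferon signal were examined from lists of the pathway. Of the interferon ligands, Ifng was the 1 that could be tested, and most others, Ifnb1 among them, were not analysed here. Ifng, the gene of interferon gamma, had 3, 1 and 1 counts in the Ctr kidneys, 39, 20, 42 and 23 counts in Lpr and 14, 28, 43 and 47 counts in DNase. It rose in Lpr (adjusted p = 0.00391 from edgeR) and in DNase (adjusted p = 0.00144 from edgeR) against Ctr, and its log2 fold change between DNase and Lpr was -0.03. None of the 6 receptor genes passed in Lpr against Ctr, and 3 rose in DNase against Ctr.

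Of the kinases and transducers, Irf9 and Stat2, parts of the complex that binds the response element, are described. Irf9 rose in both comparisons with Ctr, with log2 fold changes of 1.24 (SE 0.22, adjusted p = 0.00911 from edgeR) in Lpr and 0.94 in DNase. Stat2 had 1.27 (SE 0.41, adjusted p = 0.0997 from edgeR) in Lpr, where replicate 3 lay at 18.1 CPM within the range of Ctr, and passed in DNase at 0.94 (SE 0.13, adjusted p = 0.000743 from edgeR). Of the 7 negative regulators, 4 rose in Lpr, namely Usp18, Socs1 at 3.03, Socs3 at 2.42 and Ptpn6 at 0.81.

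Related lists moved in the same direction. Of 15 tested genes known to respond to interferon gamma, guanylate-binding proteins and chemokines among them, 14 rose in Lpr against Ctr, with a median log2 fold change of 3.65, and 14 rose in DNase, with a median of 3.19. Over all genes tested, 7.27% rose in Lpr and 13.1% in DNase. Of 23 further genes induced by type I interferon, 10 rose in Lpr, with a median of 0.90, and 16 rose and 1 fell in DNase. Between DNase and Lpr 0 genes of either list passed. At an unadjusted p under 0.05 from edgeR, 4 of the 15 and 7 of the 23 were lower in DNase, against 3.43% of all genes.

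In whole kidney, fewer cells of a type and less RNA per cell cannot be told apart, and leukocytes express many of these genes. The summed CPM of 6 general leukocyte markers lay between 54.7 and 77.7 in Ctr, and all 6 markers rose in Lpr. It was 357, 583, 397 and 332 in Lpr replicates 1 to 4 and lay between 268 and 510 in DNase. Of the T cell markers 7 of 7, and of the macrophage and monocyte markers 8 of 9, rose in Lpr, with Cd14 at an adjusted p of 0.0513 from edgeR. Of the B cell, plasma cell and neutrophil markers 2 of 5, 4 of 6 and 3 of 4 rose. The part of these cells in the rise against Ctr was not tested. Between DNase and Lpr the median log2 fold change of the general leukocyte markers was -0.19, that of the T cell markers -0.21 and that of the macrophage and monocyte markers -0.41, while all 6 B cell markers were higher in sign in DNase, with a median of 0.99. DNase replicate 3 had a leukocyte marker sum of 510, above the 357 of Lpr replicate 1, and a mean log2 CPM of the 39 genes of 4.15, below the 5.21 of Lpr replicate 1. The marker lists differed for Lpr replicate 1, which had the lowest T cell sum of the MRL/lpr kidneys, 51.4 CPM, and the highest neutrophil sum, 37.3 CPM. The part of cell content in the difference between DNase and Lpr was not tested. Lpr replicate 2 was the highest of all kidneys in the leukocyte, T cell, and macrophage and monocyte sums, at 583, 136 and 1331 CPM, and the second highest in the mean of the 39 genes, at 5.06. Of the plasmacytoid dendritic cell markers, a cell type that makes much type I interferon, 3 of 10 rose in Lpr, and its defining marker Siglech stayed at or under 1.06 CPM in every kidney.

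**Figure D5:**
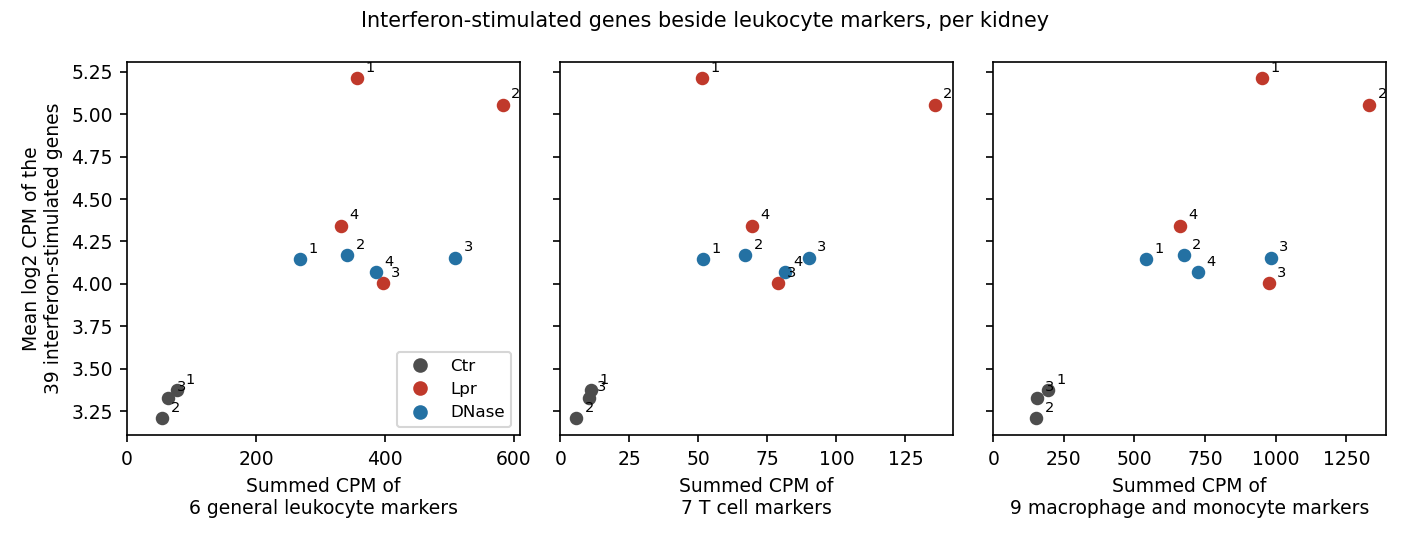
Mean log2 CPM of the 39 genes (vertical axis) against the summed CPM of the general leukocyte, T cell, and macrophage and monocyte markers (horizontal axes, from 0), 1 point per kidney with its replicate number. The 3 Ctr kidneys are lowest on both axes, and Lpr replicates 1 and 2 lie above all other kidneys on the vertical axis. On the horizontal axes Lpr replicate 2 is the highest kidney. Lpr replicate 1 lies within the DNase range of the general leukocyte and the macrophage and monocyte markers, and just below that of the T cell markers.

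The response element was set beside the fold changes. In Lpr against Ctr the log2 fold changes of the 14 genes with a match had a median of 1.49 and a range from -0.22 for Rsad2 to 2.89 for Oas3. The 17 genes with a window but no match had a median of 1.01 and a range from -0.74 for Samd9l to 2.45 for Oasl1. Genes without a window were left out of both sets, and each of them lay above 1.01, among them Zbp1 at 3.08 and Dhx58 at 2.60. The lower median of the genes without a match therefore does not hold for all genes in which no match was found. The ranges overlapped for most of their width, and the difference is a description of promoters that include clustered and near-identical genes.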

How the data were processed

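RNA-seq of 11 kidneys, 1 library per mouse, was read from gene counts and FPKM values. The gene counts deposited by the authors were whole numbers without normalization. The FPKM values deposited by the authors were these counts per library total and per gene length. The submitters' processing notes name fastp, HTSeq, DESeq2, R 3.2.0 and mm10, and the reads were 100 bp paired-end. The study's methods name HTSeq also for the alignment, and no other aligner. Groups came from the sample titles. Groups were compared in pairs with edgeR 4.0.16 in R 4.3.3 (filterByExpr, TMM, quasi-likelihood test, Benjamini-Hochberg), the procedure having been tested on simulated data. DESeq2 1.42.0 and limma 3.58.1 gave alternatives, with log2(FPKM + 1) or log2(FPKM + 0.1) and a mean FPKM of at least 0.5 in limma. Log2 CPM used a prior count of 2. Promoters came from RefSeq GRCm38.p6. Reading frames of Ifit3 with Ifit3b and of Oas1a with Oas1g were aligned end to end with Biopython 1.88. The partial close copies of other genes came from blastn 2.17.0+. Figures were drawn with matplotlib 3.10.9. Nothing in the labels links replicate numbers across groups, and deviations of same-numbered kidneys correlated between -0.275 and 0.182, so no block was used. Kidneys of a group differed by more than sampling noise, the chi-square statistic being 17.5 or more times its degrees of freedom. The p-values measure the spread between these mice.

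The 42 genes and all other lists were chosen with earlier results of these data known. The naming rule gave per-kidney values for the 10 genes with the smallest p in Lpr against Ctr and the near-identical copies, the 8 with the smallest p in DNase against Lpr, and the genes whose call differed between the comparisons with Ctr. Rsad2, Samd9l, Dtx3l and Oas3 received values in Lpr after these were seen. Of the pathway lists, it named those that passed in Lpr and a few fixed genes, of which 1 is not reported here. Alternatives changed normalization, tool, filter, threshold, groups in the fit, replicate block, robust fit, pseudocount and the libraries included, and an offset for gene length was added after the data were seen.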

Additional observations from a re-analysis of the deposited data

Results flagged for a closer look

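Over 78 tests of a lowest or highest kidney in groups of 4, with 39 genes in Lpr and in DNase, 3 gaps exceeded Dixon's critical value, where chance alone flags about 5% of the groups. Bst2 in Lpr replicate 4 had 88.0 CPM, far below the next kidney at 175 CPM. Samd9l in Lpr replicate 3 had 51.9 CPM, below the next kidney at 131 CPM, and this kidney was low in most long genes. Ifitm3 in DNase replicate 4 had 64.0 CPM, where the other 3 treated kidneys lay between 72.0 and 72.2 CPM.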

How the results depend on the processing

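Leaving out each kidney in turn moved the genes higher in Lpr than in Ctr from 26 to between 9 and 35, those lower to between 0 and 1, and the log2 fold change of Rsad2 to between -0.65 and 0.0159, above 0 without Lpr replicate 3. Under the study's rule 12 genes were higher, against 747 of all 16074 genes tested. With limma on log2(FPKM + 1), 17 of 37 past its filter were higher (median 1.17), against 827 of 13377 genes. Without that filter 10 were higher (median 1.07), against 768 of 24832 genes. In DNase against Ctr, 1 gene was higher and 0 lower under the study's rule and 11 and 0 with all 3 groups in 1 fit. There Isg20 lay between -0.0566 and 0.42 and Slfn5 between -0.0851 and 0.21 with 1 kidney left out, the first below 0 without Ctr replicate 2 and the second without DNase replicate 2. With the replicate block, 22 genes were higher in Lpr, against 955 of 16074 genes, and 0 passed in DNase against Lpr, as over all genes. In DNase against Ctr the block gave 21 higher and 2 lower, against 1236 and 633 of 16100 genes. It moved the count of higher genes there from 31 to 21. For single genes, 129 alternative fits lost a call in Lpr against Ctr and 18 gained one, and 88 lost and 2 gained one in DNase against Ctr. In DNase against Lpr, where only the 8 genes with the smallest p were followed, none of 160 did. Causes were not tested. All 39 genes passed the filter on low counts, and each group held 3 or 4 kidneys.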
